A study of Mus musculus with 3 samples.

Results

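Small nucleolar RNA host genes (Snhg genes) are transcription units without a known long reading frame that carry the sequences of small nucleolar RNAs (snoRNAs) in their introns. Here 10 of them were described, out of 14047 genes with a log2 ratio on all 3 arrays: Snhg3, Snhg5, Snhg6, Snhg7, Snhg8, Snhg9, Snhg10, Snhg16, Snhg17 and Snhg20. The genes were selected by name from the platform's gene annotation, were required to have values on all 3 arrays, and were taken with earlier results of these same ratios known. Their ratios are therefore given as a description, without a test. Each gene was represented by 1 probe, and all 10 matched RefSeq long noncoding RNA genes by their Entrez identifiers.

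The arrays compared metanephroi of 11.5 days post coitum (dpc), the kidney rudiment once the ureteric bud has entered it, with metanephric mesenchyme of 10.5 dpc, the tissue from which nephrons and stroma form. Both tissues were microdissected from normal embryos of the outbred mouse strain CD1, pooled over the sexes, and both stood on every one of the 3 two-colour arrays, on Compugen mouse oligonucleotides, as dye-labelled amplified RNA. Arrays 1 and 2 had the dye order red/green and array 3 had green/red. The labels do not tell separate dissections from repeat hybridisations of the same extracts, so the spread between arrays may be technical. Which tissue each ratio has on top is not stated. A positive and a negative log2 ratio therefore stand for more RNA in opposite tissues, with neither tissue assigned, and whether array 3 was turned to match the other arrays is not stated either. The metanephros holds ureteric bud as well as mesenchyme, and in such bulk RNA fewer cells of a type and less RNA per cell cannot be told apart.

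As background, snoRNAs guide chemical modification of ribosomal and spliceosomal RNA. Box C/D snoRNAs direct ribose methylation with the methyltransferase fibrillarin, box H/ACA snoRNAs direct pseudouridylation with dyskerin, and the related small Cajal body RNAs (scaRNAs) act on spliceosomal RNA. After splicing, the intron is trimmed to the snoRNA, and for many hosts the spliced exons are destroyed by nonsense-mediated decay. Many host genes begin with a 5′ terminal oligopyrimidine tract, the element that places ribosomal protein messages under control of the mTOR kinase. Amplified RNA made from polyadenylated transcripts reports the host transcript and not the snoRNA.

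The windows around the annotated starts are shown because these genes are often described as sharing a pyrimidine-rich start, and because the 5 genes span the range of the ratios below: Snhg5 is the highest gene with similar values on all arrays, Snhg8 lies in the middle, Snhg7 is lower and at 0 on array 3, Snhg20 has no pyrimidine run at its start, and Snhg16 is the gene with the widest spread. Each sequence is the sense strand, 5′ to 3′, with 50 bases before and 30 bases from the start onward, from RefSeq in build GRCm38.p6. Capitals mark TATAAA and the longest run of C and T that begins with C and has at least 4 more pyrimidines within 20 bases of the start.

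Snhg5, chr9:88522868-88522947, minus strand: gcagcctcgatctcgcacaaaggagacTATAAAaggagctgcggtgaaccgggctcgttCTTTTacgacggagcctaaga
Snhg8, chr3:123508307-123508386, minus strand: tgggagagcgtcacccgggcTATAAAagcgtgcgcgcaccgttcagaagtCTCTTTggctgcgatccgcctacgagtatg
Snhg7, chr2:26640215-26640294, minus strand: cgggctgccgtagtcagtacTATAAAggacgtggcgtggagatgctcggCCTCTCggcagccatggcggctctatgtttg
Snhg16, chr11:116671610-116671689, plus strand: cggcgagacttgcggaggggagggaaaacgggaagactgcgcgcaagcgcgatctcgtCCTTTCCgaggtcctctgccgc
Snhg20, chr11:117076733-117076812, plus strand: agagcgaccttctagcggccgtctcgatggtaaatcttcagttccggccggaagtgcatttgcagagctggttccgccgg

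A promoter entry was found for 9 of the 10 genes, and Snhg6 had none in the table. A pyrimidine run of this kind was present in 8 of the 9, against 45.9% of all 32851 promoter entries of the same length. Snhg17 had 2 entries, counted as 1 gene, and the second held no run. The run began at the first annotated base in Snhg8, 1 base before it in Snhg7, at base 9 in Snhg16 and at base 10 in Snhg5. In Snhg3 it began at base 3, and in Snhg10, Snhg9 and Snhg17 it began 6, 9 and 18 bases before the start. Snhg20 had no such run. Only the sense strand was searched for it. TATAAA on either strand of the whole 300-base entry was found in 5 of the 9 genes, against 13.6% of all entries. The nearest match began 30 bases before the start in Snhg7 and Snhg8 and 23 bases before it in Snhg5. In Snhg3 and Snhg9 it lay after the start, beginning at bases 23 and 35. CCGGAA, the core letters bound by ETS factors, was found on either strand in 6 of the 9, against 14.9% of all entries. In Snhg3 it overlaps the pyrimidine run. CACGTG was found in Snhg9 alone, against 7.15% of all entries. The motifs were chosen after the sequences had been read, and a match describes letters, not a bound site.

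The 10 Snhg genes had a median mean log2 ratio of 0.55, against -0.0019 for all genes. All 10 means were positive, where 49.8% of all genes had a positive mean, and 8 of the 10 were positive on every array, where 22.9% of all genes were. None was negative on every array, as 22.5% of all genes were. Since the genes were taken with these ratios known, nothing is read from that difference. On arrays 1 and 2 alone, which ran in the same dye order, 9 of the 10 were positive on both, against 38.4% of all genes. The medians of the Snhg genes were 0.72 on array 1, 0.76 on array 2 and 0.40 on array 3, while the medians of all genes were 0.04, 0.04 and -0.06. In linear terms most of these differences are modest: apart from Snhg10, Snhg5 and Snhg16, the means correspond to ratios between 1.13 and 1.60. The mean of Snhg16 averages arrays on opposite sides of 0, from -2.50 to 2.09, and is not read as a small difference.

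**Figure D1:**
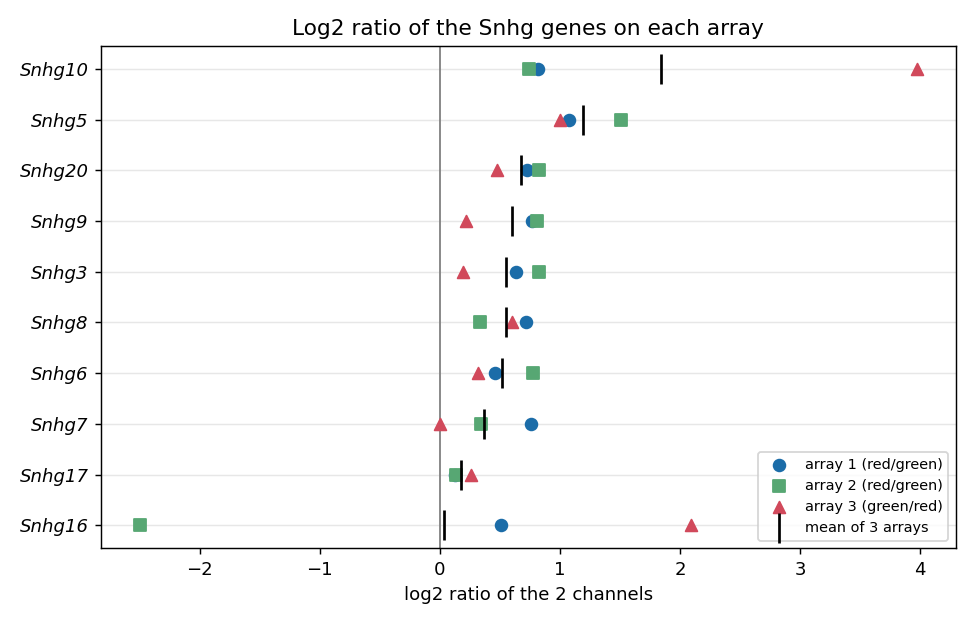
Log2 ratio of the 2 channels (horizontal axis) for each Snhg gene (rows, ordered by mean), with a point for each array and a bar for the mean of the 3 arrays. The points lie close together for Snhg17, Snhg20 and Snhg8, while array 3 stands apart for Snhg10 at 3.97 and the arrays of Snhg16 run from -2.50 to 2.09.

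Among the hosts of box C/D snoRNAs, Snhg5, which carries the U50 snoRNAs, had log2 ratios of 1.07, 1.51 and 1.00 on arrays 1, 2 and 3. Its mean was 1.19 ± 0.27 (SD, n = 3), a ratio of 2.29, and it ranked 315 of 14047 genes from the positive end. All 3 arrays lay at a ratio of at least 2, which no other gene of the 10 did.

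Snhg6, which carries Snord87, had log2 ratios of 0.46, 0.77 and 0.32, with a mean of 0.52 ± 0.23 (SD, n = 3). Its 3 values lay between those of Snhg17 and Snhg5 on every array. Its RefSeq span overlaps the protein-coding gene Mcmdc2, which had no value here. Snhg16, the host of the 3 Snord1 genes, had 0.51, -2.50 and 2.09, with a mean of 0.03 ± 2.33 (SD, n = 3). Its arrays lay on opposite sides of 0, including arrays 1 and 2 of the same dye order, which differed by 3.01, and 97.5% of all genes had a smaller SD. No level can be given for Snhg16 from these arrays: its mean is 1.30 without array 2 and -0.996 without array 3.

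The means of the 5 hosts of box H/ACA snoRNAs lay between 0.17 and 0.60. Snhg9, which carries Snora78, had log2 ratios of 0.77, 0.81 and 0.22, with a mean of 0.60 ± 0.33 (SD, n = 3). Snhg3, the host of the U17 snoRNAs Snora73a and Snora73b, had 0.64, 0.82 and 0.19, with a mean of 0.55 ± 0.33 (SD, n = 3). Snhg9 and Snhg3 followed the same order of arrays, with array 3 lowest in both, and so did Snhg5, Snhg6 and Snhg20 of the other classes. The RefSeq span of Snhg9 lies inside that of the ribosomal protein gene Rps2, whose own values were -0.07, 0.38 and -0.41, with a mean of -0.03 ± 0.40 (SD, n = 3). The share of each transcript in the signal of the Snhg9 probe was not tested.

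Snhg8, which carries Snora24, had log2 ratios of 0.72, 0.33 and 0.60, with a mean of 0.55 ± 0.20 (SD, n = 3). Here array 3 lay between the others. Snhg7, the host of Snora17 and Snora43, had 0.76, 0.34 and -0.0014, with a mean of 0.37 ± 0.38 (SD, n = 3). On array 3 its ratio was thus at 0, and it was, with Snhg16, 1 of the 2 genes without the same sign on all arrays. Snhg17, which carries snoRNAs of the Snora71 family, had 0.12, 0.13 and 0.26, with a mean of 0.17 ± 0.07 (SD, n = 3). Its spread was the smallest of the 10, and only 4.90% of all genes had a smaller SD.

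The remaining genes, grouped as scaRNA hosts, were close to each other on arrays 1 and 2 and far apart on array 3. Snhg20, known in human as the host of SCARNA16, had log2 ratios of 0.72, 0.82 and 0.48, with a mean of 0.67 ± 0.18 (SD, n = 3), a ratio of 1.60. In the mouse RefSeq annotation the microRNA gene Mir6516 is the one small RNA gene within it, so its place among the scaRNA hosts rests on the human gene. Snhg10, the host of Scarna13, had 0.82, 0.74 and 3.97, with a mean of 1.84 ± 1.84 (SD, n = 3). Arrays 1 and 2 gave it a ratio of 1.72, close to the 1.71 of Snhg20 on the same arrays, whereas array 3 alone gave 15.7. Snhg10 had the highest mean of the 10 by virtue of that array, and without it the mean was 0.78.

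The order of the means ran from Snhg10 through Snhg5, Snhg20, Snhg9, Snhg3, Snhg8, Snhg6, Snhg7 and Snhg17 to Snhg16. Of the 9 neighbouring pairs in that order, Snhg5 over Snhg20 was the pair in which the higher gene was above the lower on all 3 arrays, with a difference of 0.52 ± 0.17 (SD, n = 3). In the other 8 pairs at least 1 array had the opposite order, and in all 8 the difference was smaller than its SD over the arrays. Snhg9 and Snhg3, for example, differed by 0.05 ± 0.07. The median spread of the 10 genes, an SD of 0.30, was near the 0.34 of all genes.

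Array 3 decided part of this pattern. Across the 14047 genes, which are not independent replicates, arrays 1 and 2 had a Spearman correlation of 0.501, while array 3 had 0.258 with array 1 and 0.208 with array 2. With the deposited sign both were thus positive. Of the markers given below, 3 of 3 of renal stroma were positive on every array. Negative on every array were 5 of 6 of limb bud, 6 of 8 of endothelium and 4 of 5 of yolk sac and liver. Signs were mixed in 6 of 11 of metanephric mesenchyme, 3 of 7 of muscle and 6 of 7 erythroid markers. For those 4 lists of mostly shared sign, the deposited sign of array 3 matched arrays 1 and 2. As deposited, array 3 was positive for 9 of the 10 Snhg genes. With its sign turned, the median of the means was 0.33, and 8 of the 10 means were still positive. Snhg5 then had a mean of 0.53 and Snhg9 had 0.45, while Snhg10 had -0.80 and Snhg16 had -1.36. Snhg17, whose ratio was small on all arrays, then had 0.0007. Under that sign Snhg7, at -0.0014 on array 3 as deposited, was the gene with positive values on every array. Genes positive on every array as deposited cannot be so once array 3 is turned, so nothing is read from this.

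**Figure D2:**
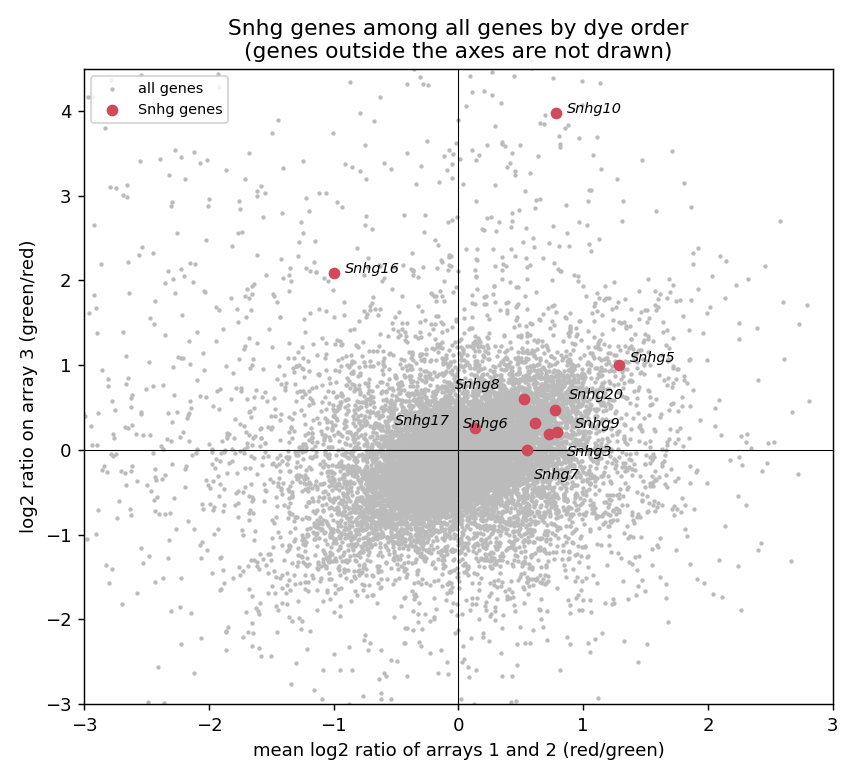
Mean log2 ratio of arrays 1 and 2 (horizontal axis, red/green) against the log2 ratio on array 3 (vertical axis, green/red) for all genes in grey and the Snhg genes in red. Apart from Snhg10 and Snhg16, the Snhg genes lie at 0.13 to 1.29 on arrays 1 and 2 and at -0.0014 to 1.00 on array 3, with Snhg10 far above them and Snhg16 to their left.

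**Figure D3:**
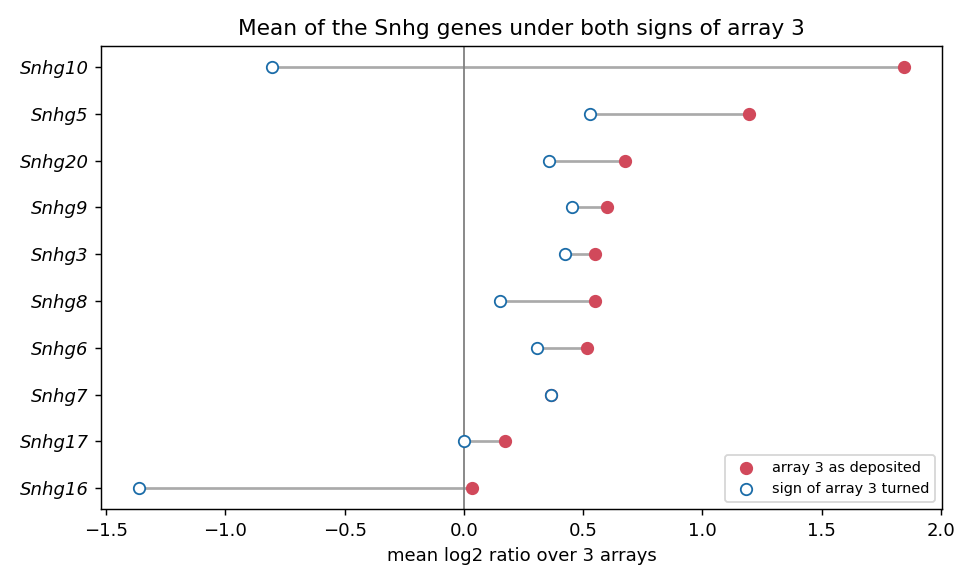
Mean log2 ratio over 3 arrays (horizontal axis) of each Snhg gene with array 3 as deposited (filled) and with the sign of array 3 turned (open). Snhg10 and Snhg16 cross from 1.84 and 0.03 to -0.80 and -1.36, and the other 8 stay at or above 0.

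Genes around the Snhg hosts were taken from lists compiled with earlier results of these arrays known. Of 14047 genes, limma called 0% at an adjusted p of 0.05, and so none of the genes in these lists passed it. At an unadjusted p of 0.05, limma had 9.89% of all genes on the positive side and 9.69% on the negative side. The total of 2750 genes was 1156 without array 1, 1453 without array 2 and 779 with the sign of array 3 turned. The smallest adjusted p of any gene was 0.149.

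Other noncoding hosts measured on the arrays were few, 5 of the 13 listed genes found in RefSeq. A further 2 listed names matched no RefSeq gene. Zfas1, which carries Snord12, had log2 ratios of 1.01, 1.09 and 0.96, with a mean of 1.02 ± 0.07 (SD, n = 3), and so resembled Snhg5 in size. Epb41l4aos had 0.60, 0.55 and 0.65, with a mean of 0.60 ± 0.05. Rian, an imprinted transcript that carries many box C/D snoRNAs, lay on the other side, at -1.51, -1.09 and -2.51, with a mean of -1.71 ± 0.73. These 3 genes had an unadjusted p under 0.05 by limma and an adjusted p between 0.149 and 0.173, by the same fit. With array 3 turned, Zfas1 had 0.38, Epb41l4aos had 0.17 and Rian had -0.03. Mir17hg, listed here although it is a host of microRNAs, had a mean of 1.25 ± 0.79, and of -0.18 with array 3 turned. By limma it had an unadjusted p of 0.027 and an adjusted p of 0.205. In the list of 5, limma thus had 3 positive and 1 negative at an unadjusted p under 0.05. The shares of all genes were 9.89% and 9.69%.

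Dancr, the host of Snora26, had 2 probes that disagreed. One had log2 ratios of 0.92, 0.06 and 1.17, and the other had 0.41, -1.23 and -0.41. Their average was 0.15 ± 0.66 (SD, n = 3), and no direction was taken from it. The list of noncoding hosts had a median of 0.60 with 4 of 5 means positive, counting the average of Dancr and the microRNA host Mir17hg. As deposited, 3 of the 5 were positive on every array, 1 was negative on every array and 1 was mixed. With array 3 turned the list's median was -0.03, so the positive median rests on the deposited sign of that array.

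Protein-coding genes that carry snoRNAs in their introns lay evenly around 0. Of 43 measured, 20 had a positive and 23 a negative mean, with a median of -0.03. By limma 5 had an unadjusted p under 0.05 on the positive side and 5 on the negative side. The shares of all genes were 9.89% and 9.69%. Taf1d, a subunit of the polymerase I selectivity factor, had 1.46 ± 0.30. Ddx39b, an RNA helicase of splicing and export, had -0.98 ± 0.20, and Tcp1, a chaperonin subunit, had -0.92 ± 0.18 (SD, n = 3 each).

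The proteins that bind snoRNAs gave no common direction. Of 8 measured core proteins, 3 had a positive and 5 a negative mean, with a median of -0.14. On the box C/D side, fibrillarin (Fbl) had log2 ratios of 0.30, 0.01 and -0.98, with a mean of -0.22 ± 0.67, while Nop56 had -0.23 ± 0.15, Nop58 had 0.23 ± 0.37 and Snu13 had 0.31 ± 0.19. On the box H/ACA side, Nop10 had 0.55 ± 0.28, Gar1 had -0.27 ± 0.22 and Nhp2 had -0.05 ± 0.06 (SD, n = 3 each). Rrp9, which binds the U3 snoRNA, had -0.50 ± 0.05. Nop10 and Rrp9 were the core proteins with an unadjusted p under 0.05 by limma, on opposite sides. The shares of all genes were 9.89% on the positive side and 9.69% on the negative side.

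Factors that assemble snoRNPs or trim snoRNAs lay mostly on the negative side, with 19 of 25 means negative and a median of -0.24. Of all genes, 7048 of 14047 had a negative mean. By limma 5 of the 25 factors had an unadjusted p under 0.05 on the negative side and 3 on the positive side. The shares of all genes were 9.69% and 9.89%. Ecd, a cofactor of the chaperone complex that assembles such particles, had -1.47 ± 0.24. The zinc finger HIT proteins of box C/D assembly were positive, Znhit6 at 0.78 ± 0.01 and Znhit3 at 0.67 ± 0.24 (SD, n = 3 each). With the sign of array 3 turned the list's median was -0.03.

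**Figure D4:**
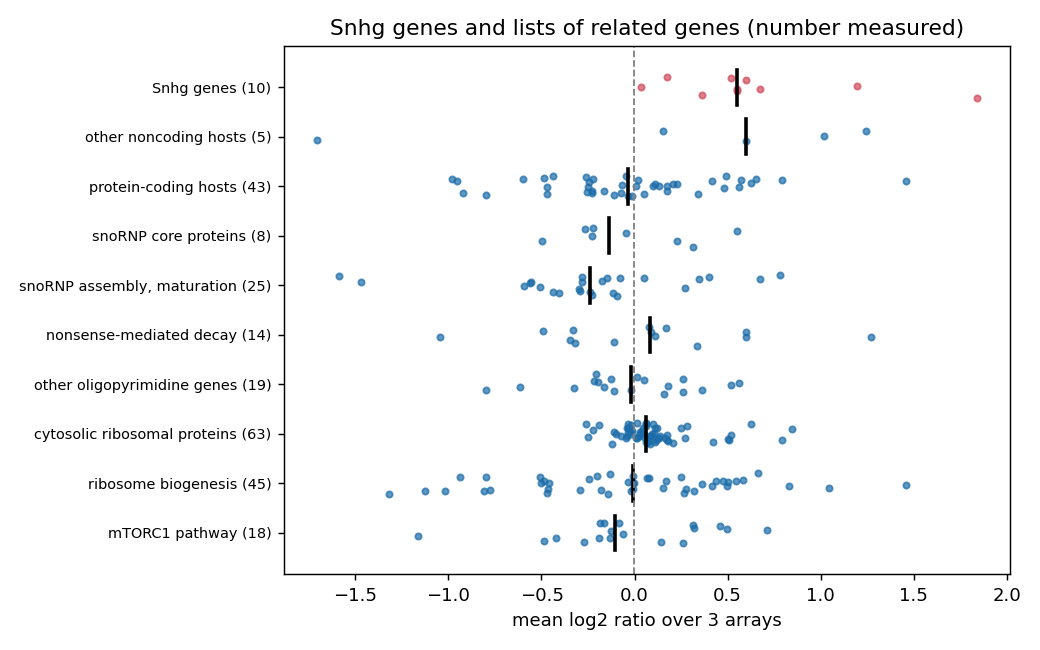
Mean log2 ratio over 3 arrays (horizontal axis) for each gene of the Snhg group (red) and of 9 lists of related genes (blue), with a black bar at each list's median and a dashed line at the median of all genes. The Snhg genes have a median of 0.55, while protein-coding hosts and ribosome biogenesis genes spread on both sides of 0.

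Ribosomal protein genes and other genes with an oligopyrimidine start had medians near 0, and so did the factors that carry out nonsense-mediated decay. Of 63 cytosolic ribosomal protein genes, 44 had a positive mean, where 49.8% of all genes did. The list's median of 0.06 combined -0.07 on array 1, -0.12 on array 2 and 0.37 on array 3. For the Snhg genes, by contrast, the medians of arrays 1 and 2 were the higher ones. Array 3 was nevertheless the highest array for Snhg10, Snhg16 and Snhg17. By limma 4 of the 63 ribosomal protein genes had an unadjusted p under 0.05, all positive. Of all genes, 9.89% were positive and 9.69% negative at that threshold. The 4 included Rpl23 at 0.79 ± 0.27, Rps20 at 0.62 ± 0.32 and Rps25 at 0.51 ± 0.23. Without array 3 the list's median was -0.09 and with that array turned it was -0.16.

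Other oligopyrimidine genes had a median of -0.02 over 19 genes, with 1 positive and 2 negative at an unadjusted p under 0.05 by limma. Of all genes, 9.89% were positive and 9.69% negative at that threshold. Of the 5 elongation factor genes in the list, Eef2 had -0.80 ± 0.05 and Eef1b2 had 0.56 ± 0.12, with Eef1a1, Eef1d and Eef1g between them at -0.32, -0.11 and -0.21. The initiation factor gene Eif4b had -0.62 ± 0.06 (SD, n = 3 each). Of 18 genes of the mTORC1 pathway, 7 had a positive mean and the median was -0.11. By limma 2 were positive and 2 negative at an unadjusted p under 0.05, with Lamtor5 of the lysosomal Ragulator complex at 0.71 ± 0.08, the activating GTPase gene Rheb at 0.50 ± 0.18 and the translational repressor gene Eif4ebp1 at -0.48 ± 0.21.

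Nonsense-mediated decay factors had a median of 0.08 over 14 genes, with 2 positive and 1 negative at an unadjusted p under 0.05 by limma. Of all genes, 9.89% were positive and 9.69% negative at that threshold. Rbm8a, an exon junction protein, had 0.60 ± 0.17, the kinase gene Smg1 had 0.60 ± 0.27, and the release factor gene Etf1 had -0.49 ± 0.15 (SD, n = 3 each). Genes of ribosomal RNA transcription and ribosome biogenesis had a median of -0.01 over 45 genes, with 4 positive and 7 negative at that threshold. Besides Taf1d they included Rrp1 at -1.32 ± 0.22 and Mybbp1a at -1.02 ± 0.14.

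The genes closest to the Snhg median profile, by Euclidean distance over the 3 arrays, were Znrd1 at a distance of 0.0118, Rnf103 at 0.0263 and 2700097O09Rik at 0.0427. With 3 points per gene such closeness is a description only.

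Markers of cell types also differed between the channels, which the arrays give only as ratios and not as levels. For scale, 49.8% of all genes had a positive mean, and 7048 of 14047 had a negative one. Limb bud markers were negative in 6 of 6 genes with a median of -0.95, muscle markers in 6 of 7 with -0.78, yolk sac and liver markers in 4 of 5 with -1.34 and endothelial markers in 7 of 8 with -0.36. Erythroid markers were negative in 6 of 7, with a median of -0.04. Renal stroma markers were positive in 3 of 3 with a median of 1.47, ureteric bud markers in 5 of 7 with 0.20 and metanephric mesenchyme markers in 6 of 11 with 0.09. With the sign of array 3 turned, the median of the ureteric bud markers was on the other side, at -0.14, and that of the other 7 lists kept its side. The renal stroma median was then 0.61, the limb bud median -0.36, the muscle median -0.42 and the yolk sac and liver median -0.30. The part of these differences in cell makeup in the ratios of the Snhg genes was not tested.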

How the data were processed

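The files hold, for each array, a deposited log2 ratio per probe. Image analysis by the authors used Imagene 5.5, per the labels, and their normalization in R combined print-tip lowess with a step between arrays, using 20% of the data at each point of the curve and a floor of 10 in the control channel. No spot intensities entered the analysis, so the height of a probe over background is unknown, and 3 arrays set the precision.

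Of 22702 rows, 21918 were gene probes and 19660 of these had values on all 3 arrays. In the platform annotation 16656 gene probes had 1 symbol, 137 had several and 5125 had none. Averaging the probes of each symbol left 14047 genes. For every gene, limma 3.58.1 (R 4.3.3) compared the mean of the arrays with 0 in a moderated two-sided test, adjusted by Benjamini-Hochberg; the script was tested on simulated data. The Snhg genes and all lists were chosen with earlier results of these data known, and the p-values of the Snhg genes, which were part of that fit, are not used. Promoters and gene spans came from RefSeq, GRCm38.p6. Named in the text are all measured noncoding hosts and core proteins, the 3 nearest profiles, and, of other lists, the 3 genes of smallest unadjusted p with the same sign on all arrays. Alternatives covered centring, scaling, the sign of array 3, dye terms and weights, variance models, limits of -3 and 3, arrays left out, values on at least 2 arrays, and the joining of probes.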

Additional observations from a re-analysis of the deposited data

How the results depend on the processing

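The median of the 10 Snhg genes, 0.55, was 0.33 with the sign of array 3 turned. The number with the same sign on all arrays was then 1 rather than 8. That fall follows from the turning itself, since a gene positive on every array cannot stay so, and nothing is read from it. Under the other 10 alternatives the median stayed between 0.51 and 0.67. The number of positive means was 8 with array 3 turned, 9 without array 1 or without array 3, and 10 otherwise. Single means changed sign in 4 of 90 alternatives: Snhg16 had -0.20 without array 1, -0.996 without array 3 and -1.36 with array 3 turned, and Snhg10 had -0.80 with array 3 turned. The genes at an unadjusted p under 0.05 by limma, 2750, were 779 with array 3 turned and 1156 to 2943 with an array left out. At an adjusted p of 0.05 the count was 0 under all 11 alternatives. List medians changed sign in 13 of 72 alternatives, 7 of them with array 3 turned, 5 without array 3 and 1 with the dye orders weighted equally. The cause of these changes was not tested. Each ratio sets both tissues against each other on the same array, so the pairing is part of every value and no further block was fitted.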

Other observations

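Some probes on the arrays are annotated to small RNAs themselves. These genes were picked by symbol after the annotation had been read. As stated above, amplified RNA made from polyadenylated transcripts reports host transcripts. The values below are therefore not read as levels of the small RNAs, and what each probe measured was not tested. Snora64, a box H/ACA snoRNA gene that RefSeq places, like Snhg9, within the span of Rps2, had log2 ratios of -0.39, -0.48 and -0.50, with a mean of -0.46 ± 0.06 (SD, n = 3), on the other side from Snhg9. Snora70 was positive at 0.48, 0.52 and 0.12, and Snora69 was negative at -0.51, -0.08 and -0.64. Snora15 had a mean of 2.45 ± 3.20 (SD, n = 3), Snora74a had 2.37, -0.21 and -0.66, and Rnu11 had -2.63, 1.61 and -1.21. In these last genes the arrays lay on opposite sides of 0. Rnu3b4, annotated to a U3 RNA, had 0.92, 0.81 and 0.56, whereas Rnu3a had 0.40, -0.06 and 0.41.

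A probe annotated to both Snhg12 and 2310005L22Rik had log2 ratios of 0.44, 0.28 and -0.06, and was left out of the gene values because it carries 2 symbols.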
